A study of Homo sapiens with 36 samples.

Results

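The 45 genes described here drive or mark the cell division cycle, and they were followed in A549 cells, an established human lung adenocarcinoma line, through chronic exposure to the inflammatory cytokine IL-1β and after its withdrawal. The genes were chosen by symbol, from cyclins and cyclin-dependent kinases (CDKs) to replication and mitotic genes, and all 45 were found among the 63677 genes counted and were among the 19180 with enough reads to be tested. The cytokine was given at 1 ng/ml, and cells were collected 6, 15 and 21 days into exposure or 6, 15 and 30 days after it was taken away from cells that had received it for 21 days. Untreated A549 cells were collected at each of the 6 time points, so that 3 replicates in each of 12 groups gave 36 RNA-seq libraries. All groups are 1 cell line in RPMI medium with 10% serum, split every 3 to 4 days and carrying no engineered allele. The labels call the replicates biological without saying how they were grown apart, so the p-values below measure the spread between these samples.

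A cell enters the cycle when D cyclins with CDK4 or CDK6, and then E cyclins with CDK2, phosphorylate the retinoblastoma protein and free E2F transcription factors. E2F factors turn on genes that license replication origins, copy DNA and make nucleotides, and the later factors FOXM1 and MYBL2 turn on mitotic genes. CDK inhibitors brake the kinases, CDKN1B mainly CDK2 complexes and CDKN2C those of CDK4 and CDK6. RNA of many of these genes rises and falls within each cycle, so a bulk library averages over cells in all phases, and fewer dividing cells cannot be told apart from less RNA per dividing cell. A549 cells are known to lack the CDKN2A locus, and both CDKN2A and CDKN2B had 0 counts in each of the 36 libraries.

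Library depth ranged from 9116032 to 23570026 counts on genes, and the members had a lowest count of 28 in any library (CCNE2, cyclin E2). The keratins KRT7, KRT8 and KRT18, which A549 cells express, had at least 2559 counts in each library, whereas the epithelial markers EPCAM (4 to 32 counts) and KRT19 (0 to 4) were near 0. Of the markers of other cell types, CD3E had 0 counts, PTPRC, VWF, DCN, COL3A1 and PDGFRB had at most 9, and CD14 had 13 to 237. Mitochondrial genes took 11.8% to 24.6% of the counts in 11 libraries, 6 of them untreated and 5 from IL-1β groups, and 5.61% to 7.75% in the other 25. The 11 libraries are replicate 2 of untreated day 6, replicate 3 of IL-1β day 15, replicate 2 of IL-1β day 21, and 8 libraries after withdrawal, where untreated day 6 holds 2 of them and untreated day 15 another 2. Of the 11 libraries 8 are replicate 2, among them every replicate 2 library after withdrawal. A high mitochondrial share therefore cannot be fully told apart from the replicate number. Fits without replicate 2, with a replicate block or without these libraries are thus not independent alternatives. These libraries touch many results below, which are therefore also given without them.

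In untreated cells the members spanned a wide range of levels. Per kilobase of exon, the median over the 18 untreated libraries was 364 CPM for PCNA, 180.2 for TOP2A, 105 for CCNB1, 84.2 for CCND1 and 79.4 for MKI67 at the top. It was 4.53 for CDC25A, 2.76 for E2F2 and 1.12 for CCNE2 at the bottom. Among these 18 libraries CCND1 differed 1.19-fold from lowest to highest, and PCNA 1.48-fold. CDT1 differed 6.86-fold, CCND3 6.37-fold and MKI67 3.27-fold, so the spread that a treatment difference had to exceed was not the same for each gene.

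IL-1β left most cell cycle RNAs within 2-fold of the untreated level. A gene was called when its adjusted p was under 0.05 and its fold change over 2, and 1 of the 45 members met both thresholds at any time, E2F2 at day 15, where its RNA was 43.1% of the untreated level. The counts at days 6, 15 and 21 of exposure were 0, 1 and 0 members, beside 2.77%, 4.24% and 4.26% of all genes tested. At days 6, 15 and 30 after withdrawal 0 members were called, beside 1.8%, 0.954% and 0.897% of all genes. By the adjusted p alone, 1 member was lower and 0 were higher at each of days 6 (PCNA), 15 (E2F2) and 21 (PCNA), and 0 were called after withdrawal. That rule called 4.27%, 6.43% and 6.4% of all genes during exposure and 2.62%, 1.36% and 1.31% once IL-1β was gone. At an unadjusted p under 0.05 in edgeR there were 2, 5 and 7 members during exposure, beside 11.8%, 17.1% and 13.7% of all genes, and 3, 2 and 5 later, beside 9.59%, 8.75% and 8.35%. DESeq2 called 1, 2 and 3 members by its adjusted p during exposure, adding CCND1 at days 15 and 21 and CDC25C at day 21, beside 5.19%, 8.02% and 7.47% of all genes. It called 0 members at each time after withdrawal, beside 3.35%, 1.85% and 1.88%.

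The precision of these estimates varied by gene. The 95% interval of the fold change lay wholly inside 2-fold for 36, 34 and 38 members at the 3 exposure days and for 36, 36 and 35 after withdrawal, with a median half-width of 0.52 log2 units at each exposure day. It lay inside 2-fold at all 6 times for 32 of the 45 members, among them PCNA, CCND1, TOP2A, CCNB1, CCNB2, CDK1, AURKA, PLK1, BIRC5 and MCM2 to MCM7. For CCND3, CDT1 and E2F1 it reached past 2-fold each time, so a change of over 2-fold lay within the interval of these genes. Few intervals were narrower, and 13 to 17 of the members had one inside 1.5-fold at a given time.

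The estimates leaned below 0 by small amounts. The median log2 fold change of the members was -0.13, -0.11 and -0.15 in turn at the 3 exposure days. After withdrawal it was -0.16, -0.07 and -0.10, while the median over all genes tested lay between -0.02 and 0.02. At day 6 the estimates of 37 members were negative and of 8 positive, and at day 15 they were 26 and 19. Members negative at all 6 times numbered 13 (PCNA, E2F2, E2F8, MYBL2, MCM3, MCM4, MCM5, MCM6, CCNE1, CDK1, CDK6, CDC25C and CDKN1B), and 1 member, CDC20, was positive at all 6. How many of all genes kept 1 sign at all 6 times was not counted, so these numbers have no background beside them. Without the libraries of high mitochondrial share, the member median at day 15 was 0.02 and at day 6 after withdrawal -0.02, so the sign at day 15 turned.

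**Figure D1:**
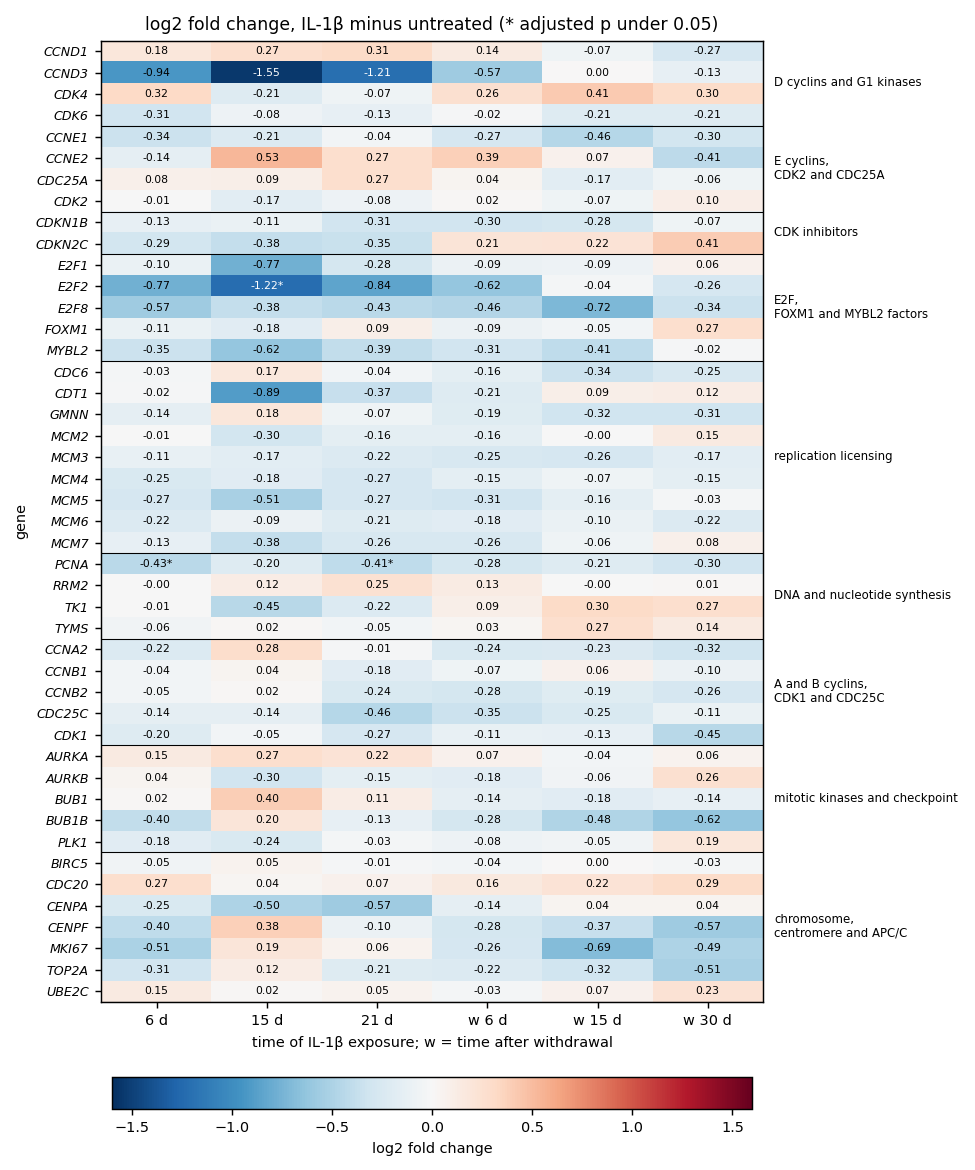
Log2 fold change of IL-1β over untreated cells for the 45 genes (rows, grouped by role) at 6 time points (columns; w, days after withdrawal), each from 3 against 3 libraries, with the value in each cell and an asterisk at an adjusted p under 0.05. The asterisks are E2F2 at day 15 and PCNA at days 6 and 21, and the lowest value is that of CCND3 at day 15 (-1.55).

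The 2 D cyclins of the set had estimates of opposite sign during exposure. CCND1 (cyclin D1; GRCh37 chromosome 11, 69455924 to 69469242, plus strand) had 422, 389 and 402 CPM (counts scaled to a common library size) in the untreated and 478, 435 and 464 in the IL-1β libraries at day 6, in the order of replicates 1 to 3. At day 15 the values were 442, 433 and 382 CPM untreated and 523, 505 and 487 with IL-1β, and at day 21 they were 403, 378 and 372 and 519, 487 and 421. All 3 IL-1β libraries thus lay above all 3 untreated ones at each exposure day (with scaling by total counts only, at days 6 and 21). After withdrawal CCND1 had 413, 394 and 411 CPM untreated and 478, 481 and 381 after IL-1β at day 6, and 419.8, 389 and 392 and 400.5, 337 and 404 at day 15. At day 30 it had 407, 399.9 and 392 untreated and 369.7, 319 and 308 after IL-1β, so that here all 3 IL-1β libraries lay below the untreated ones, though not with scaling by total counts only. Its log2 fold change (± SE) was 0.18 ± 0.11, 0.27 ± 0.11 and 0.31 ± 0.11 with the cytokine present. Later it was 0.14 ± 0.11, -0.07 ± 0.11 and -0.27 ± 0.11, with adjusted p of 0.17 at day 15, 0.10 at day 21 and 0.40 at day 30 after withdrawal. A block for the replicate number brought the adjusted p at day 21 to 0.048. The block fits a shift per number shared by all 12 groups, and does not pair libraries within a time.

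The response of CCND1 at day 30 after withdrawal was 0.57 ± 0.15 log2 units below that at day 21, a difference of -0.57 with an adjusted p of 0.087, or 0.029 with the replicate block and 0.0022 in DESeq2. It was the 1 member with an unadjusted p under 0.05 in edgeR among the 3 differences of response tested, a count given without the share of all genes. By either rule 0 members were called in any of the 3 differences in edgeR without the block. Both rules called 0.0104% of all genes for day 21 minus day 6. For day 6 after withdrawal minus day 21 they called 0.136% with and 0.141% without the fold threshold, and for day 30 after withdrawal minus day 21 0.626% and 0.73%. With the high mitochondrial libraries left out the CCND1 difference was -0.54, with an adjusted p of 0.16.

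CCND3 (cyclin D3; chromosome 6, 41902672 to 42018095, minus strand) had the lowest estimates of any member during exposure, and it is named here after its values were seen. It had 245, 171 and 327 CPM in the untreated and 118, 109 and 161 in the IL-1β libraries at day 6. At day 15 it had 312, 344 and 242 untreated and 137, 139.9 and 28.8 with IL-1β, and at day 21 it had 255, 260.1 and 291 and 113, 95.4 and 139.8. The groups did not overlap at any of these days (with scaling by total counts only, they did at day 6), and the lowest value, 28.8, came from a library of high mitochondrial share. CCND3 gave log2 fold changes of -0.94 ± 0.56, -1.55 ± 0.57 and -1.21 ± 0.56, and 0 of the 3 passed (adjusted p = 0.62, 0.12 and 0.32). With replicate 2 left out CCND3 passed at day 15, at -1.72. After withdrawal the libraries ranged from 54.0 to 312 CPM untreated and from 39.4 to 245 after IL-1β, with fold changes of -0.57, 0.00 and -0.13.

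Once the 11 libraries of high mitochondrial share were left out, CCND3 passed both thresholds at each exposure day, at -1.13 ± 0.18, -1.11 ± 0.19 and -1.07 ± 0.18 (adjusted p = 0.0002, 0.0003 and 0.0004), that is 45.8%, 46.4% and 47.7% of the untreated level. In that fit it was the 1 member called at days 6, 15 and 21, beside 3.42%, 4.94% and 4.98% of all genes, and 0 members were called after withdrawal, beside 2.16%, 0.133% and 0.716%. By the adjusted p alone 4, 3 and 3 members were lower at the exposure days and 0 higher, beside 7.84%, 10.6% and 11.4% of all genes. These were CCND3 and E2F2 on each day, with PCNA and CDKN2C at day 6, CDT1 at day 15 and CDC25C at day 21. After withdrawal this rule called 0 members, beside 3.08%, 0.143% and 1.22% of all genes. Day 6 and day 15 after withdrawal kept 1 untreated library each in this fit, which is assumed to vary like the other groups.

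The kinases that pair with D cyclins had smaller estimates. CDK4 lay between -0.21 and 0.41 and CDK6 between -0.31 and -0.02 over the 6 times. Exons of CDK4 overlap those of TSPAN31 on the opposite strand over 44.2% of their length, and without the strand setting of the counting, reads of the pair cannot be told apart. Of the genes that act next, CCNE1 (cyclin E1) ran from -0.46 to -0.04 and was the 1 of 4 with an unadjusted p under 0.05, at day 15 after withdrawal (-0.46 ± 0.19, adjusted p = 0.43). CCNE2 lay between -0.41 and 0.53, and 37.1% of its exon length overlaps genes on the opposite strand, with the same limit on its reads. The range of CDC25A, the phosphatase that activates CDK2, was -0.17 to 0.27, and that of CDK2 -0.17 to 0.10.

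Neither CDK inhibitor among the members passed the test at any time with all libraries. CDKN1B (p27; chromosome 12, 12838432 to 12875303, plus strand) had 62.6, 74.3 and 58.4 CPM untreated and 60.4, 64.6 and 53.0 with IL-1β at day 6, and 53.7, 45.4 and 65.7 and 44.9, 43.0 and 65.5 at day 15. At day 21 it had 54.9, 51.9 and 57.0 untreated and 43.9, 43.6 and 44.6 with IL-1β, with no overlap. Its fold change that day was -0.31 ± 0.19 (adjusted p = 0.58). After withdrawal it had 56.6, 68.1 and 48.7 untreated and 38.5, 59.8 and 42.3 after IL-1β at day 6, 43.3, 65.1 and 73.8 and 42.8, 56.7 and 50.3 at day 15, and 51.4, 59.8 and 53.5 and 47.0, 56.4 and 53.2 at day 30. The groups overlapped at these times, and the estimates were -0.30, -0.28 and -0.07.

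CDKN2C (p18; chromosome 1, 51426417 to 51440306, plus strand) had 35.6, 29.0 and 39.8 CPM untreated and 25.04, 28.5 and 31.8 with IL-1β at day 6, and 36.2, 34.4 and 29.9 and 28.7, 33.0 and 15.3 at day 15. At day 21 it had 34.2, 36.4 and 41.3 untreated and 28.2, 27.7 and 31.7 with IL-1β. Among the exposure days this last one separated the groups, at -0.35 ± 0.27 (adjusted p = 0.77). After withdrawal it had 24.8, 23.2 and 36.9 and 37.6, 23.0 and 37.7 at day 6, 36.2, 22.9 and 23.8 and 36.04, 24.7 and 36.3 at day 15, and 33.4, 14.7 and 32.0 and 37.7, 35.2 and 34.0 at day 30, untreated first each time. The estimates there were positive, at 0.21, 0.22 and 0.41, and at day 30 all 3 IL-1β libraries lay above the untreated ones, though not with scaling by total counts only. The lowest untreated library of that day has a high mitochondrial share, and leaving out such libraries gave 0.14 ± 0.13. In that same fit the day 6 estimate of exposure was -0.38 ± 0.11 (adjusted p = 0.043).

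E2F2, an activating E2F factor, and PCNA, the sliding clamp that holds DNA polymerases on their template, carried the calls, and their promoters are shown with that of CCNB2, a mitotic cyclin that was not called, to set the 2 kinds of cell cycle promoter side by side. Each line gives the 250 bases before the gene's first start site in RefSeq (GRCh38.p14), 5′ to 3′ on the gene's strand, with matches to 3 short motifs in capitals. The motifs, searched on both strands, were CCAAT, the cell cycle homology region (CHR; TTTGAA or TTCGAA) and an E2F core (TTGGCGC or TTCCCGC or TTCGCGC or TTGCCGC).
PCNA (chr20:5126623-5126872, minus strand): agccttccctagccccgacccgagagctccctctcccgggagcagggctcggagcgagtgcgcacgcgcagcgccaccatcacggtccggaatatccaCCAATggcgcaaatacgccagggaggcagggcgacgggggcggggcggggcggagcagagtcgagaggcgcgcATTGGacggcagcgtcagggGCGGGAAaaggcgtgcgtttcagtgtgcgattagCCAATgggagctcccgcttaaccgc
E2F2 (chr1:23531234-23531483, minus strand): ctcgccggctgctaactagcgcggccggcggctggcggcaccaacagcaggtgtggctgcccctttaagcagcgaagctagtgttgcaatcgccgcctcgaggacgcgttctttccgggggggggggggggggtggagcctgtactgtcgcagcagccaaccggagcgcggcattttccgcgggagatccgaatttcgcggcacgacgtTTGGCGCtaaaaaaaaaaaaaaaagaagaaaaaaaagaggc
CCNB2 (chr15:59104896-59105145, plus strand): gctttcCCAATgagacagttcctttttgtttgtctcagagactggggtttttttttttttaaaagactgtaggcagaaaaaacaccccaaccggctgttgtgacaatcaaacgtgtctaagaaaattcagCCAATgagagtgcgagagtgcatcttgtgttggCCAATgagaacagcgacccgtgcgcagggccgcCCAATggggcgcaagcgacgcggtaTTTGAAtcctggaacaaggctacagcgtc
The PCNA window held 3 CCAAT matches and 1 E2F core, the E2F2 window 1 E2F core, and the CCNB2 window 4 CCAAT matches and 1 CHR, with no overlap among them. In the table of promoters, 35 of the 45 members had at least 1 window. A CCAAT match was in 74.3%, an E2F core in 48.6% and a CHR in 28.6% of these 35, against 37%, 13.0% and 17.2% of all 27305 genes of the table. At day 21 the median log2 fold change was -0.26 over the 17 members with an E2F core and -0.12 over the 18 without, and at day 6 it was -0.13 and -0.20. A match is a description of letters and not a bound site.

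E2F2 (GRCh37 chromosome 1, 23832930 to 23857725, minus strand) had 13.1, 10.3 and 17.4 CPM untreated and 7.66, 6.504 and 9.69 with IL-1β at day 6. At day 15 it had 17.9, 18.1 and 20.2 untreated and 11.2, 9.35 and 3.31 with IL-1β, and at day 21 it had 13.7, 14.8 and 19.7 and 8.85, 6.44 and 11.5. The 2 groups did not overlap at these 3 days (with scaling by total counts only, they did at day 6). E2F2 had estimates of -0.77 ± 0.36, -1.21 ± 0.36 and -0.84 ± 0.36, with adjusted p of 0.38, 0.041 and 0.24. The lowest library at day 15 has a high mitochondrial share and 32 reads on E2F2, and without the libraries of that kind the estimates were -0.91 ± 0.19, -0.86 ± 0.19 and -0.64 ± 0.18 (adjusted p = 0.0028, 0.0034 and 0.025), past the adjusted p but not 2-fold. Leaving out replicate 3 gave -0.80 at day 15 and leaving out replicate 1 gave -1.56, and neither passed.

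After withdrawal E2F2 had 15.3, 7.86 and 17.4 CPM untreated and 10.9, 6.03 and 9.33 after IL-1β at day 6, 15.9, 8.06 and 8.33 and 12.7, 6.98 and 11.97 at day 15, and 18.8, 8.36 and 14.85 and 11.95, 11.96 and 11.4 at day 30. The groups overlapped at these times, with fold changes of -0.62, -0.04 and -0.26. The differences from day 21 had no unadjusted p under 0.05, so a return of E2F2 to the untreated level was not shown. The 4 other factors of this role were negative at days 6 and 15, and MYBL2 at day 15 was -0.62 ± 0.27 (adjusted p = 0.21). E2F8, a repressor of E2F targets, ran from -0.72 to -0.34, E2F1 from -0.77 to 0.06, and FOXM1 from -0.18 to 0.27.

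PCNA (GRCh37 chromosome 20, 5095599 to 5107272, minus strand) was the member with the highest untreated level per length, at a median of 364 CPM per kilobase of exon over the 18 untreated libraries, and it passed the adjusted p at 2 times. At day 6 it had 503, 399.5 and 568 CPM untreated and 334, 315 and 443 with IL-1β, and the groups overlapped. At day 15 it had 499, 519.5 and 478 untreated and 434, 429 and 438 with IL-1β, and at day 21 539, 529.6 and 591 and 440.5, 374 and 434. The groups did not overlap on either of these days. In log2 fold change PCNA stood at -0.43 ± 0.13, -0.20 ± 0.13 and -0.41 ± 0.13, or 74.3%, 86.9% and 75.2% of the untreated level, with adjusted p of 0.047, 0.43 and 0.046 (0.028 at day 21 with the replicate block). Both calls lie close to the threshold, and neither was made with scaling by total counts only or with any 1 replicate left out (-0.45 to -0.34 at day 6, -0.46 to -0.37 at day 21). Leaving out the libraries of high mitochondrial share, the day 6 estimate was -0.54 ± 0.12 (adjusted p = 0.0053) and that of day 21 -0.32 ± 0.12 (0.10).

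After withdrawal PCNA had 474, 554 and 519 CPM untreated and 429.7, 429 and 417 after IL-1β at day 6. At day 15 it had 495, 495.5 and 461 untreated and 389.6, 435 and 433 after IL-1β, and at day 30 481, 526 and 564 and 397, 409 and 466. The IL-1β libraries lay below the untreated ones at each of these 3 times, so that PCNA was separated at 5 of the 6 times, and at 2 (days 15 and 21) with scaling by total counts only. The estimates were -0.28 ± 0.13, -0.21 ± 0.13 and -0.30 ± 0.13, and 0 of them passed (adjusted p = 0.42, 0.73 and 0.42). The differences of response from day 21 were 0.13 ± 0.18 at day 6 and 0.11 ± 0.18 at day 30 after withdrawal. Of the other genes of DNA and nucleotide synthesis, RRM2 (ribonucleotide reductase) lay between -0.00 and 0.25, TYMS (thymidylate synthase) between -0.06 and 0.27, and TK1 (thymidine kinase) between -0.45 and 0.30. Exons of TYMS overlap opposite-strand genes over 47.9% of their length.

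**Figure D2:**
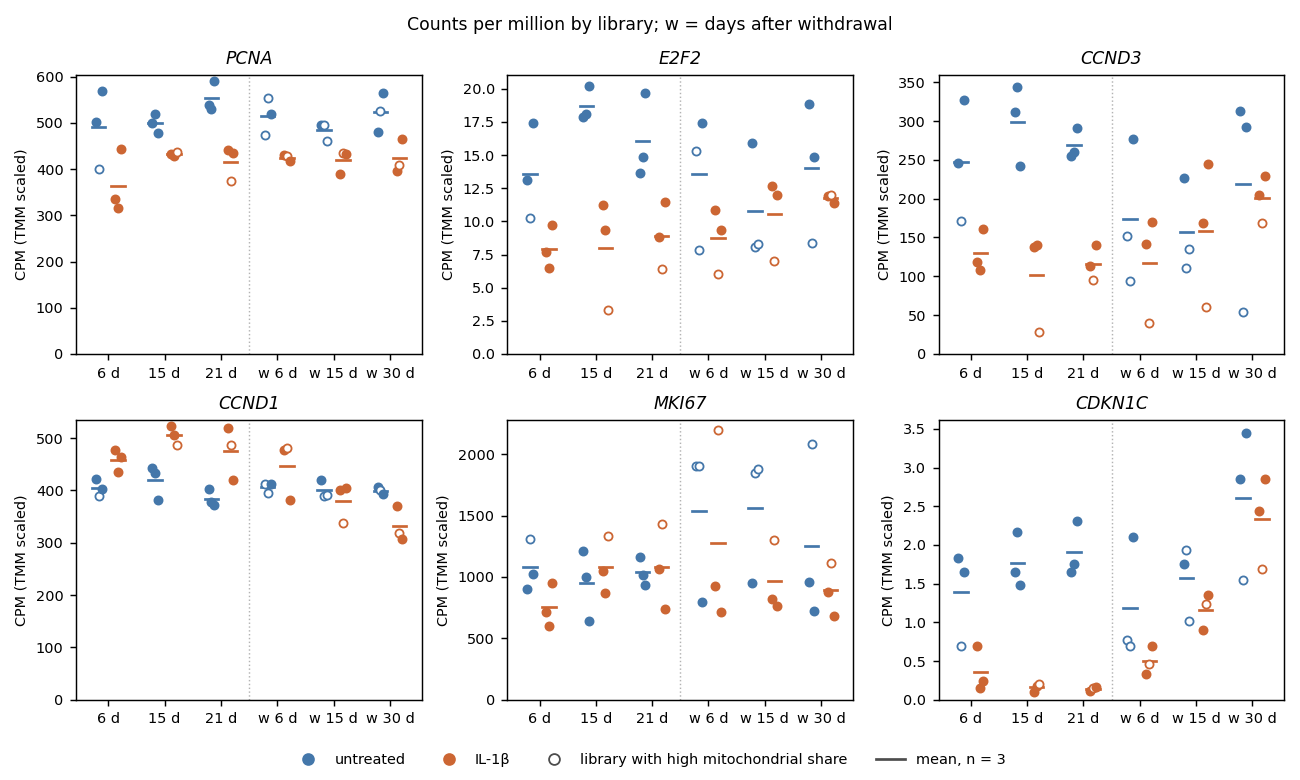
CPM of 6 genes in each of the 36 libraries (points; blue, untreated; orange, IL-1β; open, high mitochondrial share) with the group mean (bar, n = 3) at the 3 exposure days and the 3 times after withdrawal (w), on axes that start at 0. At day 21 all IL-1β points lie below the untreated ones for PCNA and E2F2 and above them for CCND1. The adjusted p in edgeR were 0.046, 0.24 and 0.10 in that order. CCND3 and E2F2 have their lowest points in open symbols, and MKI67 its highest.

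Replication licensing, in which CDC6 and CDT1 load the MCM2 to MCM7 helicase on origins and GMNN (geminin) blocks reloading, had 9 members with estimates of 1 sign at 3 of the times. All 9 were negative at day 6 (median -0.13), day 21 (-0.22) and day 6 after withdrawal (-0.19), and 6 of 9 at day 30 after withdrawal. None of them was called, and 1 had an unadjusted p under 0.05, MCM5 at day 15 (-0.51 ± 0.23, adjusted p = 0.24). The 6 MCM genes lay between -0.51 and 0.15 over all times. CDT1 ranged from -0.89 to 0.12. With the high mitochondrial libraries left out it was -0.45 ± 0.14 at day 15 (adjusted p = 0.048).

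Cyclins and kinases of G2 and mitosis were not called. CCNB1 (cyclin B1) lay between -0.18 and 0.06, CCNB2 between -0.28 and 0.02, CDK1, their kinase, between -0.45 and -0.05, and CCNA2 (cyclin A2) between -0.32 and 0.28. CCNB2 had 3 unadjusted p under 0.05, the lowest at day 6 after withdrawal (-0.28 ± 0.11, adjusted p = 0.31), and its groups did not overlap at day 21 or at any of the 3 times after withdrawal, which with scaling by total counts only held at day 21 and day 6 after withdrawal. CDC25C, the phosphatase that activates CDK1, was -0.46 ± 0.14 at day 21, with an adjusted p of 0.057, or 0.032 with the replicate block. Leaving out the high mitochondrial libraries gave -0.53 and an adjusted p of 0.014. At day 30 after withdrawal it was -0.11 ± 0.15.

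The mitotic kinases and the spindle checkpoint were mixed in sign. AURKA lay between -0.04 and 0.27, AURKB between -0.30 and 0.26, PLK1 between -0.24 and 0.19, BUB1 between -0.18 and 0.40 and BUB1B between -0.62 and 0.20, with 0 of 30 estimates at an unadjusted p under 0.05. Exons of BUB1B share 10.2% of their length with another gene on the same strand.

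MKI67, which encodes the Ki-67 antigen used to mark dividing cells (chromosome 10, 129894923 to 129924687, minus strand), did not separate the groups at any time. It had 900.1, 1309 and 1024 CPM untreated and 715, 600.4 and 953 with IL-1β at day 6, 1209, 1001 and 638 and 1045, 872.5 and 1335 at day 15, and 1164, 1014 and 931 and 1066, 1432 and 741 at day 21. Its log2 fold change was -0.51 ± 0.40, 0.19 ± 0.40 and 0.06 ± 0.40, with 95% intervals from -1.33 to 0.31, -0.63 to 1.01 and -0.76 to 0.88. After withdrawal it had 1906, 1902 and 797 untreated and 926, 2195 and 715 after IL-1β at day 6, 948, 1844 and 1881 and 824, 1299 and 766 at day 15, and 958, 2083 and 719.7 and 879, 1114 and 684 at day 30. The groups overlapped at all of these times, and the highest values are the libraries of high mitochondrial share. The estimates were -0.26, -0.69 and -0.49, with a standard error of 0.40 each. With the high mitochondrial libraries left out MKI67 stood at -0.33 ± 0.23, 0.02 ± 0.23 and -0.18 ± 0.23 during exposure, and at 0.06 ± 0.31, -0.25 ± 0.30 and -0.10 ± 0.25 later. The signs at day 21 and at day 6 after withdrawal thus turned, and no estimate passed in either fit. Days 6 and 15 after withdrawal kept 1 untreated library each with those libraries left out, so the turn at day 6 after withdrawal rests on that 1 library.

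The other chromosome and anaphase genes were also not called. TOP2A (topoisomerase II alpha) lay between -0.51 and 0.12, BIRC5 (survivin) between -0.05 and 0.05, UBE2C between -0.03 and 0.23 and CDC20 between 0.04 and 0.29. CENPA, the centromeric histone, was -0.57 ± 0.25 at day 21 (adjusted p = 0.28) and within 0.04 of 0 at days 15 and 30 after withdrawal. CENPF ranged from -0.57 (day 30 after withdrawal) to 0.38 (day 15), and those 2 ends became -0.0052 and 0.06 with the high mitochondrial libraries left out. BIRC5 had the narrowest range over the 6 times, and its 95% intervals lay inside 2-fold each time.

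**Figure D3:**
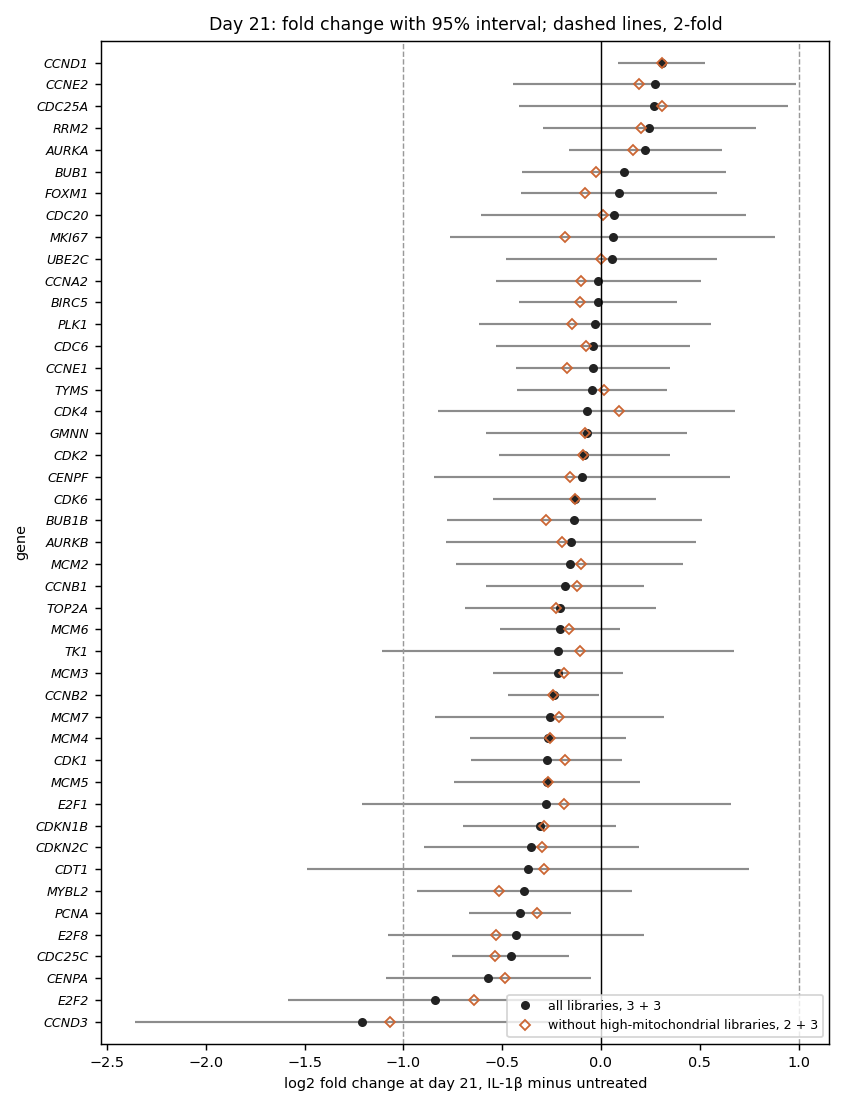
Log2 fold change at day 21 of IL-1β for the 45 genes (filled points, 3 against 3 libraries; lines, 95% interval) and the same without the library of high mitochondrial share (open diamonds), with dashed lines at 2-fold. Of the 45 intervals 38 lie inside the dashed lines, and CCND3, at -1.21 with all libraries and -1.07 without, lies lowest in both.

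Day 21 was the time with the most separation by rank. All 3 IL-1β libraries lay below all 3 untreated ones for 20 of the 45 members (44.4%), beside 15.2% of all genes, and above them for 2 (CCND1 and CDC25A), beside 13.8%. The 20 include MCM2 to MCM7, CDT1, PCNA, TK1, E2F2, E2F8, MYBL2, CCNB1, CCNB2, CDC25C and CDKN1B, and most of their estimates are under 0.5 log2 units. At days 6 and 15 of exposure 4 and 6 members lay below and 1 and 2 above, beside 11.2% and 13.9% below and 10.6% and 11.5% above over all genes. After withdrawal 3, 5 and 7 lay below and 0, 0 and 1 above at days 6, 15 and 30, beside 5.24%, 4.9% and 5.11% below and 5.51%, 6.02% and 6.78% above. With scaling by total counts only, 1, 7 and 18 members lay below at the exposure days and 2 at each time after withdrawal, where 7.57%, 15.7%, 15.8%, 3.74%, 2.46% and 3.67% of all genes did. Of the IL-1β libraries of day 21, 1 has a high mitochondrial share, and without it 22 members lay below and 3 above in 2 against 3 libraries, where 21.4% and 19.1% of all genes did. The 20 were read from the same 6 libraries and are not separate observations.

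The mitochondrial share of a library was linked to the members about as often as to all genes. Added as a term to the fit of all 36 libraries after the values were seen, it was linked to 29 of the 45 members at an adjusted p under 0.05, 12 higher and 17 lower in the libraries of high share, which is 64.4% of the members beside 65.1% of all genes. MKI67 (0.87 ± 0.11), CENPF (0.74 ± 0.11) and BUB1B (0.64 ± 0.10) were highest in those libraries, and CCND3 (-1.27 ± 0.17), CDT1 (-1.21 ± 0.17), TK1 (-0.98 ± 0.13), E2F1 (-0.91 ± 0.16) and CDK4 (-0.90 ± 0.08) lowest. The members' summed level ran from 7148 to 9711 CPM in these 11 libraries and from 5519 to 9220 in the other 25. By treatment it ran from 6461 to 9711 CPM (median 8599) in the 18 untreated and from 5519 to 9177 (median 7479) in the 18 IL-1β libraries. Such a sum is weighted to the genes of highest CPM. In the library at 9711, replicate 2 of untreated day 30 after withdrawal, MKI67 had 2083, TOP2A 1955 and CENPF 936 CPM. MKI67, CENPF and TOP2A (0.40 ± 0.08) were all higher in the libraries of high share. Fits without these libraries, and fits with high or low share as a covariate, show how far the fold changes move. Since 8 of the 11 libraries are replicate 2, the part of the share cannot be fully told apart from that of the replicate.

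**Figure D4:**
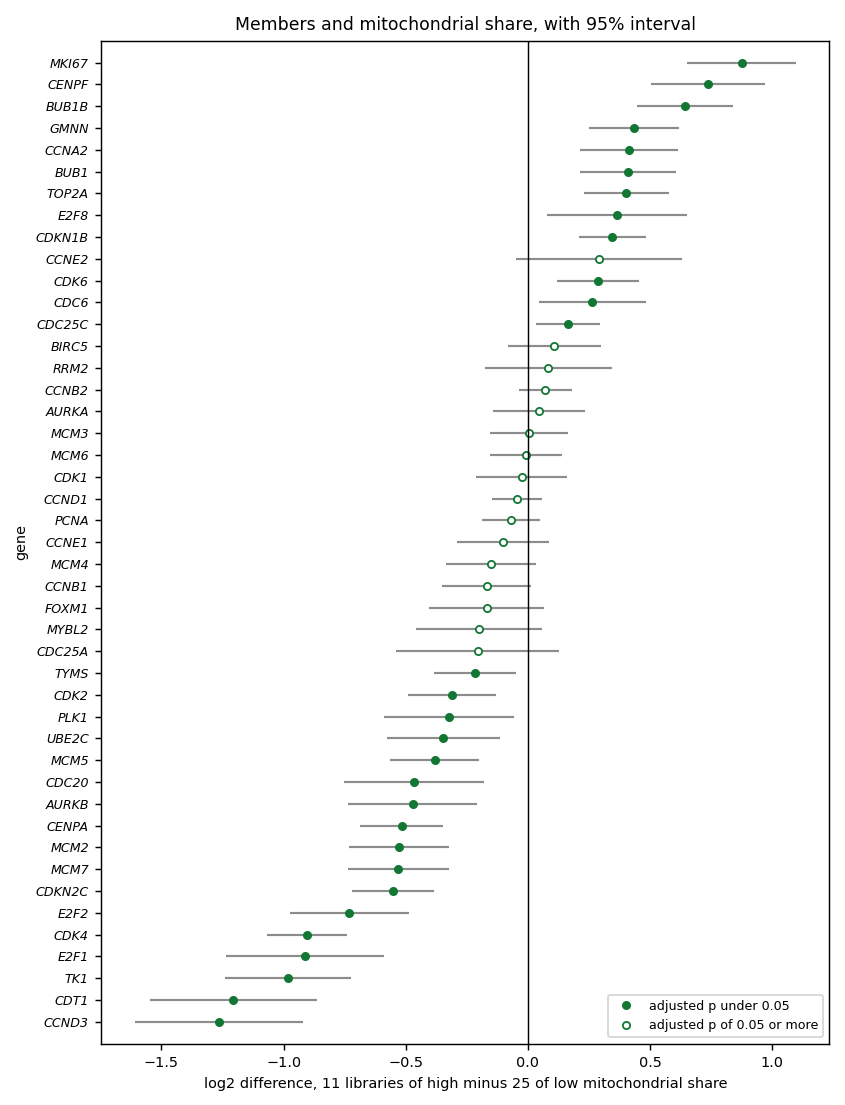
Log2 difference between the 11 libraries of high and the 25 of low mitochondrial share for the 45 genes, from the fit of all 36 libraries with the 12 groups as terms (points; lines, 95% interval; filled, adjusted p under 0.05). Of the 45 genes 29 (64.4%) are filled, beside 65.1% of all genes at that threshold. MKI67 is at the top (0.87) and CCND3 at the bottom (-1.27).

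A further 125 genes of the cycle, listed by function, were read from the same fit, and 121 were tested. Their median log2 fold change was -0.19, 0.03 and -0.10 at the exposure days. It was -0.15, -0.21 and -0.20 later, while the median over all genes tested lay between -0.02 and 0.02. After withdrawal 0 of them were called, beside 1.8%, 0.954% and 0.897% of all genes. At each of days 6, 15 and 21 the same 1 gene was called, beside 2.77%, 4.24% and 4.26% of all genes. That gene was CDKN1C (p57), a CDK inhibitor of low expression here. It had 28, 8 and 28 counts untreated and 10, 2 and 5 with IL-1β at day 6, 28, 40 and 30 and 2, 3 and 2 at day 15, and 29, 29 and 58 and 2, 2 and 4 at day 21. At day 6 the groups overlapped in counts per library. In CPM they did not, narrowly, with 0.696 in the lowest untreated and 0.690 in the highest IL-1β library. At the later exposure days they lay far apart. CDKN1C stood at -1.98 ± 0.48, -3.48 ± 0.54 and -3.68 ± 0.52 (adjusted p = 0.011, 5.2e-05 and 1.1e-05). After withdrawal its counts were 6, 8 and 49 untreated and 6, 4 and 12 after IL-1β at day 6, 27, 19 and 10 and 14, 17 and 29 at day 15, and 53, 12 and 70 and 36, 26 and 61 at day 30, with fold changes of -1.36 ± 0.47, -0.43 ± 0.42 and -0.20 ± 0.37 (adjusted p = 0.16, 0.87 and 0.91).

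CDKN1A (p21), the CDK inhibitor induced by p53, had positive estimates at all 6 times, and 0 of them passed with all libraries. It had 79.4, 56.2 and 63.3 CPM untreated and 107.5, 100.2 and 59.8 with IL-1β at day 6, 55.2, 55.2 and 64.4 and 86.8, 94.98 and 23.9 at day 15, and 51.2, 51.8 and 57.7 and 94.6, 83.5 and 117 at day 21. After withdrawal it had 36.8, 20.9 and 55.5 untreated and 106, 34.0 and 119 after IL-1β at day 6, 47.9, 25.8 and 31.0 and 99.0, 36.2 and 126 at day 15, and 66.0, 15.3 and 73.4 and 82.3, 78.7 and 108 at day 30. The lowest values after withdrawal in both groups are libraries of high mitochondrial share. Its log2 fold change was 0.43, 0.24 and 0.88 at the exposure days. It was 1.197, 1.31 and 0.79 later, with standard errors of 0.49 or 0.50. Without those libraries it passed the adjusted p at day 15 (0.64 ± 0.18, adjusted p = 0.027), at day 21 (1.00 ± 0.18, 0.0007) and at day 6 after withdrawal (1.04 ± 0.26, 0.030, on 1 untreated library), and not at day 30 after withdrawal (0.46 ± 0.20, 0.48). In the same fit NUSAP1, a spindle protein gene named after its values were seen, was lower at days 6 (-0.48 ± 0.12, adjusted p = 0.019) and 21 (-0.61 ± 0.13, 0.0022). The adjusted p alone was passed there by 7.84% and 11.4% of all genes. How many of the other cell cycle genes passed in this fit is not given. With all libraries NUSAP1 stood at -0.69 ± 0.39 and -0.41 ± 0.39 on those days (adjusted p = 0.58 and 0.90) and passed at no time. CDKN2A, at 0 counts in all libraries, gave no comparison.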

How the data were processed

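RNA of 36 libraries was sequenced as single-end reads by the authors from a stranded mRNA kit, aligned to GRCh37 with TopHat2 and counted per Ensembl gene with HTSeq-count. Versions in the submitters' processing notes are TopHat2 2.0.14, Bowtie2 2.2.5, HTSeq 0.6.1 and bcl2fastq 2.17, and the strand setting of the counting and the annotation release are not given in the sources used here. The deposited values are raw counts. Reads on no gene (8.48% to 18.6%) or ambiguous (2.62% to 4.18%) were left out.

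Groups and replicate numbers came from the labels. Genes kept by filterByExpr (19180 of 39471 with any count) were scaled by TMM and fitted in edgeR 4.0.16 (limma 3.58.1, R 4.3.3) by the quasi-likelihood model, with all 36 libraries and 12 groups and 24 residual degrees of freedom. P-values were adjusted by Benjamini-Hochberg over the 19180 genes. Genes past an adjusted p under 0.05 and a fold change over 2 were called, as in the study's methods. Standard errors were taken as the absolute log2 fold change over the square root of the F statistic, and CPM use the TMM scaling. DESeq2 1.42.0 was an alternative, and tables and figures were made with Python 3.11.15, pandas 2.3.3, numpy 2.4.6 and matplotlib 3.10.9. The fit was also run on simulated counts, which carried no shift by replicate or mitochondrial share, so that run cannot speak to either. Positions and exon lengths are from GENCODE v44lift37, promoters from RefSeq on GRCh38.p14.

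The 45 members, the other lists and the tests were chosen with earlier results of these data known. Values in every library are given for members past the adjusted p at any time and for MKI67, PCNA, CCND1, CDKN1B and CDKN2C, and of the other cell cycle genes for those called plus CDKN1A and CDKN2A. CCND3 and NUSAP1 were added after their values were seen. Every correlation of deviations between same-numbered libraries was over 0.1 at day 21 (0.23, 0.20 and 0.26) and day 30 after withdrawal (0.37, 0.46 and 0.31). The fit with the replicate number as a block is given beside those results where it changed a call. Day 6 came close (0.19, 0.09 and 0.38), so this cut does not show which times were paired. At day 30 after withdrawal both replicate 2 libraries have a high mitochondrial share, so a link by number cannot be told apart from that share. The alternatives were other scalings, filters and tests, separate fits, the replicate block, leaving out each replicate, and a high mitochondrial share (over 10% of counts) as a covariate or left out. The effect of the mitochondrial share and the untreated time course were added after seeing the data.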

Additional observations from a re-analysis of the deposited data

Results flagged for a closer look

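CDKN1C, among the other cell cycle genes, responded differently at day 30 after withdrawal and at day 21 of IL-1β, as tested by the difference of the 2 responses. The response was 3.48 ± 0.65 log2 units higher at day 30 after withdrawal (adjusted p = 0.0043, edgeR), from -3.68 to -0.20, and 3.47 (0.0029) when the high mitochondrial libraries were left out. It stood on 2 to 58 counts per library at day 21 and 12 to 70 at day 30 after withdrawal. Without the replicate block, 0 of the 45 members had a difference of response past the adjusted p in edgeR. With it CCND1 had 1, for day 30 after withdrawal minus day 21 (-0.58, adjusted p = 0.029). Groups of 3 libraries were not tested for a single library apart.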

How the results depend on the processing

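Under all alternatives run, 0 members were higher past both thresholds at any of the 6 times, and 0 members passed both in the 3 differences of response. The single lower member at day 15, E2F2, became 0 with total counts only, with low counts unfiltered, with the exact test on each time point, the separate fit of each time point, the test against a fold change of 1.5 and an adjusted p under 0.01, and 0 to 2 when a replicate was left out. With the high mitochondrial share as a covariate, alone or with the replicate block, it became 2, by adding CCND3. The count of 0 lower members became 1 at day 6 with that covariate, with it and the replicate block, without the high mitochondrial libraries, and by the adjusted p alone. At day 21 it became 1 by the exact test, the separate fit, without the high mitochondrial libraries and by the adjusted p alone, and at day 6 after withdrawal 1 with the covariate. The replicate block alone changed no such count. Shares of all genes called are given above for the main fit, the fit without the high mitochondrial libraries and DESeq2 by its adjusted p. For the other settings they are not given, so those counts have no background beside them. At days 6 and 15 and the same days after withdrawal at least 1 correlation of deviations was under 0.1 (range -0.34 to 0.72). At these times 5, 5, 4 and 4 of 6 libraries correlated best with their own number, against 6 of 6 at day 21 and day 30 after withdrawal. The block left PCNA at day 6 and E2F2 at day 15 past the adjusted p, at 0.027 and 0.015.

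The member median at day 15 (-0.11) became -0.072 with DESeq2 size factors, -0.074 with the DESeq2 Wald test, -0.21 with total counts only, -0.13 without the filter, -0.14 with at least 10 counts in every library, -0.0785 with the exact test, -0.0781 with the separate fit and 0.017 without the high mitochondrial libraries, and -0.12 to -0.022 when a replicate was left out. At day 6 after withdrawal (-0.16) it was -0.015 without the high mitochondrial libraries. At day 15 after withdrawal (-0.07) it was 0.12 with total counts only, a scaling that moved the median of all genes by 0.19 there, so that the members lay -0.10 from it. It was -0.17 with the covariate, with or without the replicate block, -0.13 without the high mitochondrial libraries, and -0.14 to -0.094 when a replicate was left out. At day 30 after withdrawal (-0.10) it was -0.12 with DESeq2 size factors, the DESeq2 Wald test, the exact test and the separate fit, 0.013 with total counts only, -0.073 with the replicate block, -0.072 with the covariate, -0.074 with both, -0.076 without the high mitochondrial libraries, and -0.13 to -0.087 when a replicate was left out. With a replicate left out, 22 to 37 members had an interval inside 2-fold at day 15, 25 to 36 at day 21, and 23 to 37 and 19 to 39 at days 15 and 30 after withdrawal.

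Of the 270 member estimates, 47 changed sign with total counts only, 47 without the high mitochondrial libraries, 33 with the covariate, 36 with it and the block, 6 with the block alone and 30, 36 and 35 with replicates 1, 2 and 3 left out. For the other alternatives it was 0 to 8. Taken at the time of its lowest p or at a call, the sign changed for FOXM1 at day 30 after withdrawal (-0.0053 without the high mitochondrial libraries, -0.016 to 0.43 with a replicate left out), BIRC5 at day 6 (0.022 with total counts only, -0.15 to 0.030 with a replicate left out), and, at day 15 without the high mitochondrial libraries, MCM2 (0.031), AURKB (0.040), PLK1 (0.085) and CDK2 (0.075). The causes were not tested. With 3 libraries a group, the intervals of CCND3, CDT1 and E2F1 reached past 2-fold each time.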

Other observations

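The untreated cells were also compared over time, after seeing the data. Against untreated day 6, the median log2 difference of the 45 members was 0.20 at day 15 and 0.30 at day 21, with 39 and 42 members positive, and -0.03 at day 30 after withdrawal, with 21 positive. The median over all genes tested was -0.0046, -0.0095 and 0.007 in that order. How many of all genes were positive is not given. In edgeR 0 members passed the adjusted p at any of these times, and 0, 1 and 0 had an unadjusted p under 0.05. Over all 19180 genes 0, 3 and 2 passed the adjusted p, and 366, 1009 and 372 had an unadjusted p under 0.05. The untreated day 6 group holds 1 library of high mitochondrial share, and its summed member levels were 7118, 7148 and 8797 CPM, against 8933, 8633 and 8550 at untreated day 21.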
